A study of Homo sapiens with 58 samples.

Results

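TFRC, IREB2, FTH1 and FTL are 4 genes of cellular iron handling, and their contacts with HuR, the RNA-binding product of ELAVL1, were read from a table of HuR crosslinking and immunoprecipitation (CLIP) peaks. The members were all peaks that carry 1 of these 4 gene names after repeated lines of the table were dropped, which gave 91 of 387214 peaks. Of these, 56 belonged to IREB2 (ENSG00000136381), 23 to TFRC (ENSG00000072274), 9 to FTH1 (ENSG00000167996) and 3 to FTL (ENSG00000087086). Every peak is 20 nt long, and none of the 91 overlapped a peak assigned to another gene.

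All 58 libraries came from Huh-7.5, a line derived from human hepatocellular carcinoma, in which HuR was immunoprecipitated with the 3A2 antibody after UV crosslinking. Treatment was 45 min of sodium arsenite at 0.5 mM, an oxidative stress that forms stress granules, or a mock. In 12 libraries, wild-type cells without an APEX reaction were split into a cytoplasmic and a nuclear fraction, with 3 libraries for each fraction and treatment. The other 46 came from lines carrying the peroxidase APEX joined to a nuclear localisation signal (NLS), to a nuclear export signal (NES) or to G3BP1, a core protein of stress granules (G3BP). This enzyme tags nearby proteins with biotin when biotin phenol and hydrogen peroxide are added. The 29 enriched libraries (NLS, 4 mock and 4 arsenite; NES, 4 and 4; G3BP, 6 and 7) had a streptavidin capture in addition, and the 17 input libraries (NLS, 2 and 2; NES, 2 and 2; G3BP, 4 and 5) did not. Nothing in the labels says that replicates were separate cultures, so p-values measure the spread between these libraries, which may be technical.

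Values are CPM, the tags of a peak per 1000000 of the library total, which was inferred from the deposited values. Tags in peaks numbered 235471 to 673322 per fraction library, 1353 to 484305 per input library and 519 to 86419 per enriched library, and 16 input or enriched libraries were under 10000. The hepatocyte genes ALB and AFP carried tags in all 4 fraction groups, with means of 75.3 to 483 CPM and 414 to 1257 CPM. Of 2 nuclear RNAs, NEAT1 was at 413 ± 27.7 CPM in the nuclear and 125 ± 11.6 CPM in the cytoplasmic mock fraction, while MALAT1 was at 2561 ± 198 and 2394 ± 286 CPM (SD, n = 3). All fraction libraries belong to 1 library set (JL0380) and no input or enriched library does, so fractionation and library set cannot be told apart.

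TFRC encodes the transferrin receptor, which takes up iron bound to transferrin. FTH1 and FTL encode the heavy and light chains of ferritin, the shell that stores iron. IREB2 encodes iron regulatory protein 2, which, like its relative ACO1, binds hairpins called iron-responsive elements (IREs) when iron is low. An IRE in the 5′UTR of a ferritin mRNA then blocks its translation, and IREs in the 3′UTR of TFRC mRNA protect that mRNA from decay. HuR is a mostly nuclear protein that moves to the cytoplasm under stress and binds U-rich and AU-rich stretches, mainly in 3′UTRs and introns, where it is known to stabilise many mRNAs.

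The IRE of FTL is shown as the kind of site that iron regulatory proteins bind. It was found in RefSeq's GRCh38.p14 sequence at chr19:48965334-48965358, plus strand, by searching the 300 bases around the transcript start (250 before and 50 after it) for CNNNNNCAGTGN. That motif spells the unpaired C, 5 stem bases and the 6-base loop. In capitals are that C and the loop.
FTL IRE: tctcttgCttcaaCAGTGTttggac
No FTL peak lay on it, and the nearest began 176 bases further on, in the class CDS. The same letters stood in 10.1% of 35116 promoter windows of that length on the transcribed strand and in 18.5% on either strand, so the match is a description only. The promoter table held 4 windows of 3 of these genes, of which this 1 held the motif. An IRE beyond the first 50 bases of a transcript would be missed.

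TFRC tags lay mainly in the 3′UTR, and IREB2 and FTH1 tags were spread over more classes. TFRC (chr3, 196049284 to 196082090, minus strand, RefSeq GRCh38.p14) had 13 peaks in the class 3′UTR and 10 in introns. IREB2 (chr15, 78437431 to 78501453, plus strand) had 16 in the 3′UTR, 32 in introns, 5 in transposable elements and 3 in the class Other. FTH1 (chr11, 61964285 to 61967634, minus strand) had 3 in the 3′UTR, 2 in the 5′UTR and 4 in introns, and FTL (chr19, 48965309 to 48966879, plus strand) had 1 in the 3′UTR and 2 in the CDS. All 3′UTR peaks of TFRC and IREB2 lay inside the RefSeq genes. Of these, 12 of 13 on TFRC and 13 of 16 on IREB2 lay within 3000 bases of the RefSeq 3′ end. The farthest were 21888 and 25413 bases upstream of it. Peaks were also summed by gene and class, and these sums carry the main tests.

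Depth differed between members and sets the precision. The 12 fraction libraries gave 750 tags on TFRC, 849 on IREB2, 112 on FTH1 and 43 on FTL. The 17 input libraries gave 167, 403, 49 and 18, and the 29 enriched libraries 35, 79, 8 and 8. FTH1 and FTL therefore rest on a few tags per library, and their values also carry an uncertainty of assignment. Peaks named after 4 FTH1 pseudogenes held 98 tags against 169 on FTH1, and peaks of 2 FTL pseudogenes held 15 against 69 on FTL, so reads of near-identical sequence may have been split. A tag count reflects the amount of an mRNA in the fraction as well as HuR contacts per molecule. With no RNA measurement used here, these cannot be told apart, and each value is a share of its own fraction's library.

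**Figure D1:**
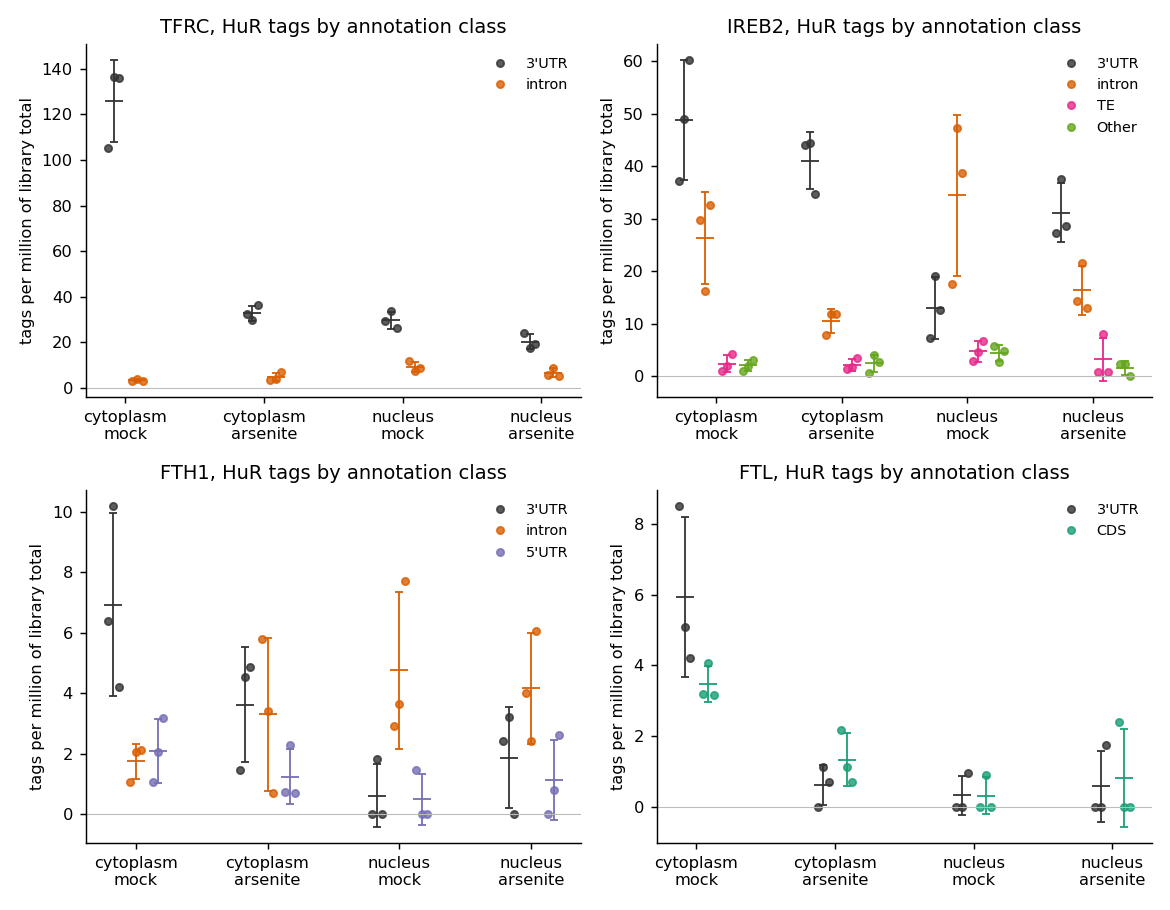
Tags per 1000000 of library total in 3′UTR, intron, CDS, 5′UTR, transposable element (TE) and Other peaks of TFRC, IREB2, FTH1 and FTL (vertical axes) in the 4 fraction groups (horizontal axes). Points are the 3 libraries of a group and bars the mean and SD; the TFRC 3′UTR stands at 105 to 136 CPM in the cytoplasmic mock libraries and at 36.2 CPM or below in every other fraction library.

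In mock cells, HuR tags on the 3′UTRs of all 4 genes were lower in the nuclear than in the cytoplasmic fraction, and those on TFRC introns were higher in the nucleus. The test was limma on log2(CPM + 2.28) over all sums, with Benjamini-Hochberg adjustment, and a fold on that scale understates the change of low values. It called 6 of the 11 member sums, 5 lower and 1 higher, beside 29.0% of all 21245 sums tested. A sum needed tags in at least 3 of the 6 libraries. The FTH1 3′UTR, FTL 3′UTR and FTL CDS met this only through the cytoplasmic libraries, so the filter favoured their direction. The 4 calls on 3′UTRs stand against a class in which 49.4% of 6090 sums were called lower, with a median log2 difference of -0.98.

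The TFRC 3′UTR showed the largest cytoplasmic signal of the 4 genes' sums. In the cytoplasmic mock libraries it held 105, 136 and 136 CPM (99, 134 and 129 tags). In the nuclear mock libraries it held 29.1, 33.6 and 26.1 CPM (20, 37 and 27 tags). The groups did not overlap, and the lowest cytoplasmic library lay above the highest nuclear library by more than the spread within each group. The means of 126 ± 17.9 and 29.6 ± 3.81 CPM (SD, n = 3) differed 4.25-fold, with a log2 difference of -2.004 ± 0.182 (SE; adjusted p = 2.44e-06 by limma).

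TFRC introns went the other way. They held 3.19, 4.07 and 3.16 CPM in the cytoplasmic and 11.7, 7.27 and 8.69 CPM in the nuclear mock libraries, again without overlap. The means were 2.65-fold apart, with a log2 difference of 0.98 ± 0.32 (adjusted p = 0.0346). Among introns of all genes, 25.1% were called higher in the nucleus, with a median of 0.48. This call was lost when any 1 of the 6 libraries was left out, with adjusted p from 0.053 to 0.087. The 3′UTR accordingly took 97.3% ± 0.374 of TFRC tags in the cytoplasmic and 76.2% ± 5.499 in the nuclear mock libraries (SD, n = 3).

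On IREB2, the regulator, the 3′UTR held 37.2, 48.9 and 60.1 CPM (35, 48 and 57 tags) in the cytoplasmic mock libraries and 7.29, 19.1 and 12.6 CPM (5, 21 and 13 tags) in the nuclear ones. Every cytoplasmic library lay above every nuclear library. The means of 48.7 ± 11.4 and 12.98 ± 5.91 CPM differed 3.76-fold, with a log2 difference of -1.79 ± 0.29 (adjusted p = 0.000426). IREB2 introns held 29.8, 16.3 and 32.7 CPM in the cytoplasm and 17.5, 47.3 and 38.6 CPM in the nucleus. These groups overlapped, and the log2 difference of 0.31 did not pass (adjusted p = 0.518). Its 3′UTR thus took 61.5% ± 8.47 of IREB2 tags in the cytoplasmic and 22.6% ± 3.05 in the nuclear mock libraries, and its introns 33.1% ± 9.78 and 59.3% ± 6.32. The transposable element and Other peaks of IREB2 averaged 2.44 and 2.09 CPM in the cytoplasm and 4.74 and 4.46 CPM in the nucleus, and neither difference passed.

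The ferritin chains were near the floor of what the libraries can show, since 1 tag was worth 0.568 to 1.46 CPM in a fraction library. The FTH1 3′UTR held 6, 10 and 4 tags in the cytoplasmic and 0, 2 and 0 in the nuclear mock libraries. The ratio of the pooled values was 9.83 (exact 95% interval from counting error, 2.39 to 86.8), and the log2 difference was -1.68 ± 0.40 (adjusted p = 0.00676). The call was lost without nuclear mock replicate 1 (adjusted p = 0.061) or cytoplasmic mock replicate 2 (0.064). The FTH1 5′UTR, which carries that mRNA's IRE, held only 1, 2 and 3 tags against 1, 0 and 0 and did not pass (log2 difference -0.67, adjusted p = 0.144). FTH1 introns held 1, 2 and 2 tags against 2, 4 and 8 and did not pass either (0.76, adjusted p = 0.161). Of the mean of 3.49 CPM of this sum over the fraction libraries, 2.40 CPM came from 1 peak beyond the RefSeq 3′ end. The values given for FTH1 introns are therefore mostly not from inside the RefSeq gene.

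FTL showed the same order. Its 3′UTR held 8, 5 and 4 tags in the cytoplasmic and 0, 0 and 1 in the nuclear mock libraries, a pooled ratio of 16.7 (2.62 to 698) and a log2 difference of -1.64 ± 0.37 (adjusted p = 0.00446). Its CDS held 3, 4 and 3 tags against 0, 1 and 0, a pooled ratio of 9.83 (1.40 to 427) and a log2 difference of -1.17 ± 0.33 (adjusted p = 0.0156). The groups did not overlap in either class. The CDS call was lost without nuclear mock replicate 1 (adjusted p = 0.065) or 3 (0.081).

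Single peaks showed the same direction with fewer calls. Of 91 member peaks, 54 passed the filter of tags in at least 3 libraries in this comparison, and limma called 5, all lower in the nucleus, beside 2.82% of all 157168 peaks tested. The strongest was chr3:196051199-196051219, minus strand, 1915 bases from the RefSeq 3′ end of TFRC. It held 54.2, 84.5 and 74.9 CPM in the cytoplasmic and 13.1, 19.1 and 11.6 CPM in the nuclear mock libraries, and the groups did not overlap. The means differed 4.88-fold, with a log2 difference of -2.12 ± 0.27 (adjusted p = 0.00303); without cytoplasmic mock replicate 2 or 3 the adjusted p was 0.075 or 0.105. This peak alone took 56.2% ± 5.30 of TFRC 3′UTR tags in the cytoplasmic mock libraries and 48.7% ± 6.95 in the nuclear ones.

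The other called peaks were smaller. The TFRC peaks at chr3:196049777-196049797 (2 nuclear against 20 cytoplasmic tags; log2 difference -1.61 ± 0.31, adjusted p = 0.0235) and chr3:196051033-196051053 (2.22 against 10.4 CPM; -1.48 ± 0.31, adjusted p = 0.0353) fell in the same direction. The highest IREB2 peak, chr15:78499199-78499219, plus strand, 2234 bases from the RefSeq 3′ end, was at 6.58 CPM in the nucleus and 25.4 CPM in the cytoplasm, 3.86-fold apart (-1.65 ± 0.31, adjusted p = 0.0201). The only 3′UTR peak of FTL, chr19:48966838-48966858, gave the same tags as its sum (-1.64 ± 0.33, adjusted p = 0.0272). Each of these 4 calls was lost when 1 library was left out in at least 5 of the 6 ways, with adjusted p from 0.060 to 0.18 in those fits. The FTL peak and the TFRC peak at chr3:196049777-196049797 met the filter only through the cytoplasmic libraries.

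**Figure D2:**
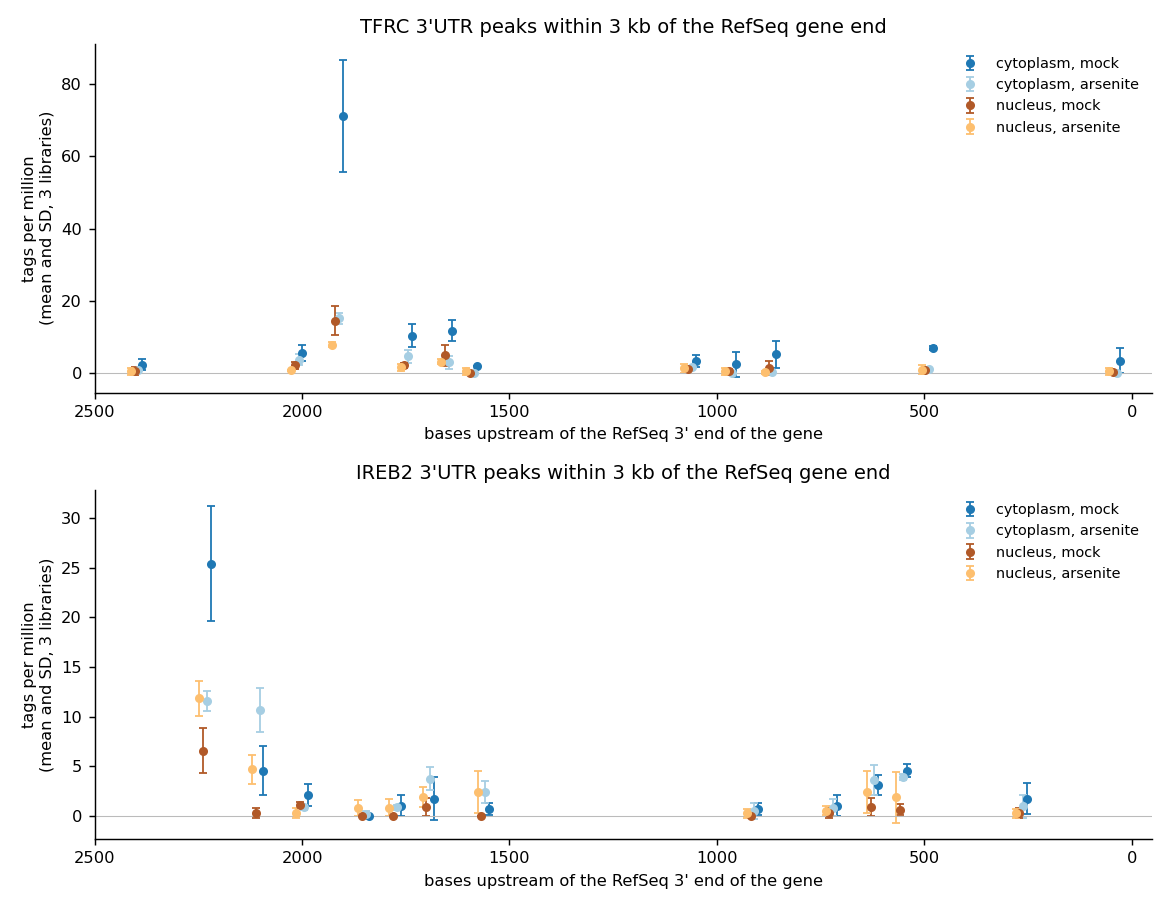
Mean CPM and SD over 3 libraries (vertical axes) for TFRC and IREB2 3′UTR peaks against their distance upstream of the RefSeq 3′ end in bases (horizontal axes), in the 4 fraction groups. The TFRC peak 1915 bases from the end reaches a mean of 71.2 CPM in the cytoplasmic mock libraries against 15.3, 14.6 and 7.96 CPM in the others, and the IREB2 peak at 2234 bases reaches 25.4 CPM.

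After arsenite, the nuclear and cytoplasmic values of the TFRC 3′UTR remained apart, and no other member sum passed. Of the 11 member sums, limma called only the TFRC 3′UTR, lower in the nucleus, beside 4.99% of all 23772 sums, and 3 members had an unadjusted p under 0.05. The TFRC 3′UTR held 32.5, 29.6 and 36.2 CPM in the cytoplasmic and 24.0, 17.6 and 19.1 CPM in the nuclear arsenite libraries. The groups did not overlap, and the means of 32.7 ± 3.31 and 20.2 ± 3.37 CPM differed 1.62-fold (log2 difference -0.64 ± 0.19, adjusted p = 0.0449). In 5 of 6 fits that left out 1 library the call was lost, with adjusted p from 0.169 to 0.219.

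The IREB2 3′UTR held 44.0, 44.3 and 34.8 CPM in the cytoplasmic and 27.2, 37.6 and 28.6 CPM in the nuclear arsenite libraries. These groups overlapped, and the log2 difference of -0.38 ± 0.17 did not pass (adjusted p = 0.249). IREB2 introns held 7.94, 11.9 and 11.8 CPM in the cytoplasm and 14.4, 21.6 and 12.99 CPM in the nucleus, which did not overlap, but the log2 difference of 0.52 ± 0.24 did not pass (adjusted p = 0.257).

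FTH1 and FTL 3′UTRs gave -0.54 (adjusted p = 0.501) and -0.05 (0.942), and TFRC introns gave 0.31 (0.660). Nor did the FTL CDS (-0.30, adjusted p = 0.679), the FTH1 5′UTR (-0.08, 0.920) or introns (0.28, 0.755), or the IREB2 Other (-0.31, 0.732) and transposable element peaks (0.07, 0.948) pass. Of 52 member peaks tested in this comparison limma called 0, beside 0.257% of all peaks; 8 members had an unadjusted p under 0.05, and edgeR's quasi-likelihood test on the recovered tags also called 0.

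In the cytoplasm, arsenite lowered HuR tags on the TFRC and FTL 3′UTRs and on IREB2 introns. Limma called these 3 of the 11 member sums, all lower, beside 13.3% of all 22884 sums. This comparison uses the cytoplasmic mock libraries that also enter the comparison of fractions, so a high or low value in those libraries moves both. Among 3′UTRs of all genes, 18.6% were called lower and the median was -0.30.

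The TFRC 3′UTR fell from 126 ± 17.9 to 32.7 ± 3.31 CPM, 3.85-fold, and the lowest mock library (105 CPM) stood above the highest arsenite library (36.2 CPM). The log2 difference was -1.87 ± 0.17 (limma, adjusted p = 4.54e-06). The introns of TFRC held 3.61, 3.98 and 6.96 CPM after arsenite against 3.16 to 4.07 CPM before it and did not pass (log2 difference 0.28, adjusted p = 0.640).

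Of 53 member peaks tested, 2 were called, both in the TFRC 3′UTR and both lower, beside 0.760% of all 193897 peaks. The main peak at chr3:196051199-196051219 held 13.7, 15.3 and 16.7 CPM after arsenite against 54.2 to 84.5 CPM before it, 4.67-fold lower in the mean (-2.05 ± 0.24, adjusted p = 0.00622). Without cytoplasmic mock replicate 2 or 3 its adjusted p was 0.245 or 0.128. The peak at chr3:196049777-196049797 went from 6.97 to 1.09 CPM (-1.46 ± 0.26, adjusted p = 0.0371), a call lost in 3 of 6 such fits (adjusted p from 0.166 to 0.245).

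IREB2 introns fell. They held 29.8, 16.3 and 32.7 CPM in the mock and 7.94, 11.9 and 11.8 CPM in the arsenite libraries of the cytoplasm, with no overlap and means 2.48-fold apart (log2 difference -1.11 ± 0.27, adjusted p = 0.0123). Among introns of all genes, 1.05% were called lower in this comparison and 13.5% higher. The intron call was lost in 5 of 6 fits that left out 1 library (adjusted p from 0.068 to 0.119). The 3′UTR held 34.8 to 44.3 CPM after arsenite against 37.2 to 60.1 CPM in mock cells, and the log2 difference of -0.22 ± 0.20 did not pass (adjusted p = 0.537).

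The FTL 3′UTR went from 8, 5 and 4 tags to 0, 2 and 1, a pooled ratio of 9.05 (exact 95% interval from counting error, 2.62 to 48.2; log2 difference -1.49 ± 0.36, adjusted p = 0.0115). This call was lost in 4 of 6 fits that left out 1 library (adjusted p from 0.068 to 0.093). The sum met the filter only through the mock libraries, which favoured a fall. The FTH1 3′UTR held 6, 10 and 4 tags in the mock and 2, 8 and 7 in the arsenite libraries, which overlapped (-0.65 ± 0.37, adjusted p = 0.271). The FTL CDS held 3, 4 and 3 tags against 3, 2 and 1 (-0.69, adjusted p = 0.200). The FTH1 5′UTR (-0.32, adjusted p = 0.591) and introns (0.37, 0.594) and the IREB2 Other (0.09, 0.905) and transposable element peaks (-0.04, 0.952) did not pass.

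In the nucleus, arsenite raised HuR tags on the IREB2 3′UTR. This was the only call among the 9 member sums that passed the filter, beside 6.13% of all 22212 sums. The nuclear mock libraries held 7.29, 19.1 and 12.6 CPM and the nuclear arsenite libraries 27.2, 37.6 and 28.6 CPM, without overlap. The means of 12.98 ± 5.91 and 31.1 ± 5.64 CPM differed 2.40-fold, with a log2 difference of 1.19 ± 0.27 (adjusted p = 0.0158). Among 3′UTRs of all genes, 13.8% were called higher and the median was 0.39. The call was lost in 5 of 6 fits that left out 1 library (adjusted p from 0.051 to 0.197).

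The TFRC 3′UTR was lower in every nuclear arsenite library (17.6 to 24.0 CPM) than in any nuclear mock library (26.1 to 33.6 CPM), but the log2 difference of -0.51 ± 0.20 did not pass (adjusted p = 0.153). IREB2 introns held 17.5, 47.3 and 38.6 CPM in the mock and 14.4, 21.6 and 12.99 CPM in the arsenite nucleus, which overlapped (-0.91 ± 0.30, adjusted p = 0.0916). This sum was called lower in 4 of 14 alternatives: with edgeR (adjusted p = 0.00758), a replicate block (0.023), no filter (0.042) and without nuclear mock replicate 1 (0.031); over all 14 the adjusted p ran from 0.00758 to 0.447. FTH1 3′UTR tags numbered 0, 2 and 0 against 3, 4 and 0 (0.49, adjusted p = 0.509). The FTH1 5′UTR (0.27, adjusted p = 0.678) and introns (-0.11, 0.903), TFRC introns (-0.39, 0.519) and the IREB2 Other (-0.84, 0.244) and transposable element peaks (-0.56, 0.561) did not pass. Of 52 member peaks tested limma called 0, beside 0.186% of all peaks; 6 had an unadjusted p under 0.05, and edgeR called 0.

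Whether arsenite acted differently in nucleus and cytoplasm was tested with an interaction term over all 12 fraction libraries. Limma called 3 of the 11 member sums, beside 11.0% of all sums. The nuclear minus cytoplasmic difference in the arsenite effect was 1.36 ± 0.28 on log2 for the TFRC 3′UTR (adjusted p = 0.000258), 1.41 ± 0.33 for the IREB2 3′UTR (0.00133) and 1.59 ± 0.50 for the FTL 3′UTR (0.0233). The other 8 sums did not pass, with the FTH1 3′UTR at 1.13 ± 0.56 (adjusted p = 0.210), the FTL CDS at 0.87 (0.290), the FTH1 5′UTR and introns at 0.59 (0.517) and -0.48 (0.675), TFRC introns at -0.67 (0.426), and IREB2 introns, Other and transposable element peaks at 0.21 (0.808), -0.93 (0.319) and -0.52 (0.659). The 3 called arose from different values. TFRC went down 3.85-fold in the cytoplasm, while its nuclear difference did not pass (-0.51, adjusted p = 0.153). IREB2 was 2.40-fold higher in the nucleus, while its cytoplasmic difference did not pass (-0.22, adjusted p = 0.537). FTL lost tags in the cytoplasm with at most 2 tags in any nuclear library. Among 3′UTRs of all genes, 24.2% were called higher in this test, with a median of 0.63. The nuclear RNA NEAT1 went from 125 ± 11.6 to 232 ± 42.2 CPM in the cytoplasmic and from 413 ± 27.7 to 539 ± 95.8 CPM in the nuclear libraries with arsenite (SD, n = 3), and the part of this in the results on fractions was not tested. The FTL call was lost with edgeR (adjusted p = 0.297), with a pseudocount 4 times smaller (0.095) and in 5 of 12 fits that left out 1 library (0.059 to 0.104).

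**Figure D3:**
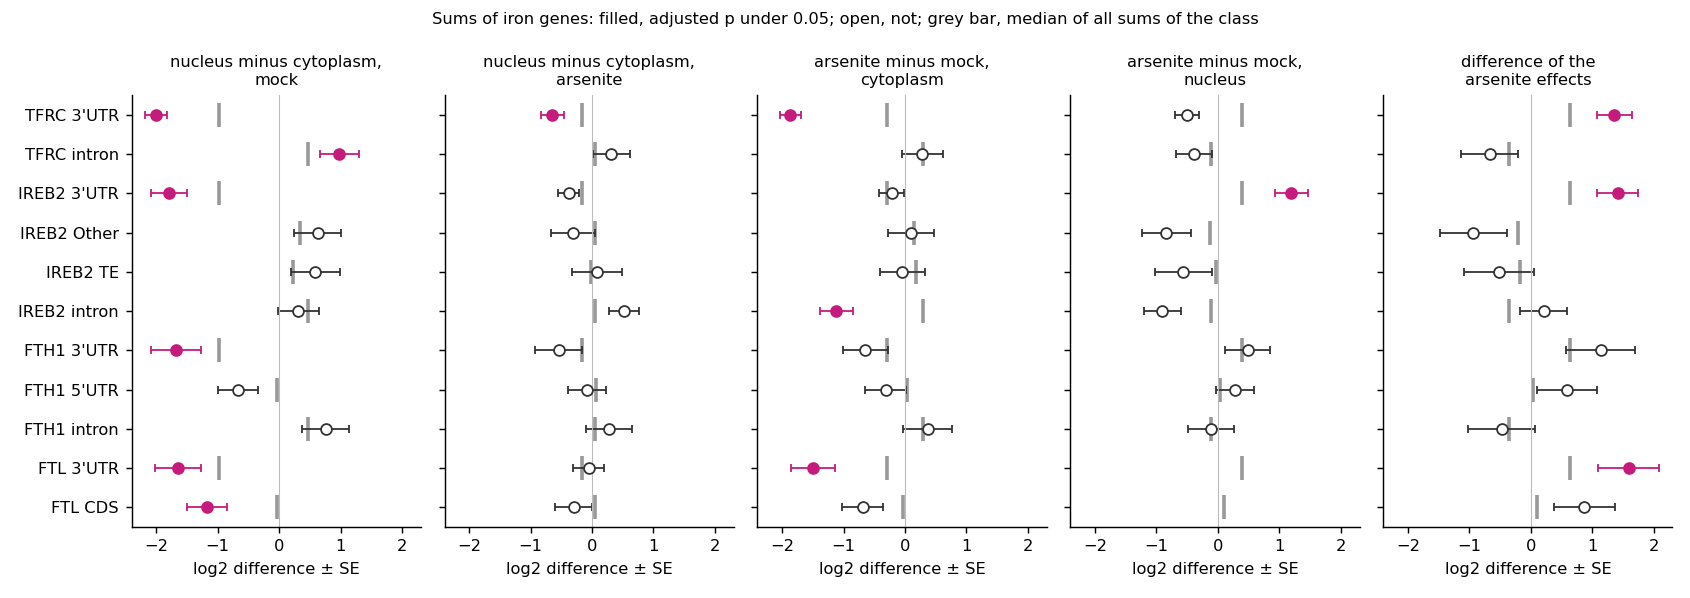
Log2 difference ± SE (horizontal axes) of the 11 gene and class sums (rows) in the 4 comparisons of fraction libraries and in the interaction, called the difference of the arsenite effects. Filled points passed an adjusted p of 0.05, open points did not, a missing point was not tested, and grey bars mark the median of all sums of that class; the TFRC 3′UTR lies at -2.004 and -1.87 in the mock fraction and cytoplasmic arsenite comparisons.

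By mean level over the 4 fraction groups, the TFRC 3′UTR stood highest in the mock cytoplasm at 126 CPM. The arsenite cytoplasm (29.6 to 36.2 CPM) and the mock nucleus (26.1 to 33.6 CPM) followed and overlapped each other, and the arsenite nucleus was lowest (17.6 to 24.0 CPM). For the IREB2 3′UTR the order was mock cytoplasm, arsenite cytoplasm, arsenite nucleus and mock nucleus, at 48.7, 41.1, 31.1 and 12.98 CPM. Each of the first 3 overlapped its neighbour in that order, and the mock nucleus lay below all others.

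The pair of highest IREB2 3′UTR peaks, whose starts are 127 bases apart, changed in relative height with arsenite. This pair was picked after its values were seen, so they are a description with no test. The peak at chr15:78499326 took 3 of 21, 3 of 29 and 7 of 36 tags of the pair in the cytoplasmic mock libraries and 18 of 35, 15 of 36 and 15 of 30 in the arsenite ones. Its mean share was 14.7% ± 4.56 and 47.7% ± 5.27 (SD, n = 3), and the groups did not overlap.

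In the nucleus that peak took 0 of 4, 1 of 11 and 0 of 5 tags in the mock and 6 of 19, 4 of 18 and 7 of 23 in the arsenite libraries, again without overlap. The shares averaged 3.03% ± 5.25 and 28.1% ± 5.10. Pooled over the input libraries, the share was 8.33% in mock (3 of 36 tags) and 22.5% in arsenite (23 of 102). Single arsenite inputs ranged from 4.88% to 63.6%, and the pool mixes library sets. Within JL0388, mock and arsenite shares were 8.70% and 4.88% (NLS), 33.3% and 10% (NES) and 0% and 14.3% (G3BP). In JL0361 the arsenite shares were 27.8% and 46.7%, and no mock input held tags of the pair. In JL1024 the NLS shares were 0% in mock and 63.6% in arsenite. In the fit over all peaks, neither of the pair passed in an arsenite comparison: the upstream peak gave -0.98 ± 0.26 in the cytoplasm (adjusted p = 0.0707) and 0.69 ± 0.29 in the nucleus (0.344), and the downstream peak 0.96 ± 0.31 (0.103) and 1.43 ± 0.32 (0.160).

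Of the remaining peaks picked by their mean over the fraction libraries, TFRC had chr3:196050935 at 5.78 CPM and IREB2 had chr15:78500878 at 2.74 CPM, both in the 3′UTR. The highest FTH1 peaks averaged 2.51 CPM (chr11:61964619, 3′UTR), 2.40 CPM (chr11:61963972, in the table's intron class but 313 bases beyond the RefSeq 3′ end) and 0.817 CPM (chr11:61967591, 5′UTR). Those of FTL averaged 1.86 CPM in the 3′UTR and 1.07 and 0.404 CPM in the CDS (chr19:48965534 and chr19:48966714). The intron class therefore does not always mean the inside of a gene: 9 of 10 TFRC and 2 of 4 FTH1 intron peaks lay within the RefSeq gene.

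In the input and enriched libraries of the APEX lines, the member genes were too sparse for most comparisons. The TFRC 3′UTR held 152 tags over all input and 30 over all enriched libraries, and the IREB2 3′UTR 263 and 60. By group, the TFRC 3′UTR in input averaged 10.5 ± 12.3 (G3BP mock, n = 4), 20.04 ± 22.6 (G3BP arsenite, n = 5), 10.5 ± 6.17 (NLS mock), 6.57 ± 6.12 (NLS arsenite), 9.53 ± 1.78 (NES mock) and 9.89 ± 13.99 CPM (NES arsenite; n = 2 in each NLS and NES group). In the enriched groups the means lay between 2.85 CPM (NLS mock) and 11.6 CPM (NES mock), the latter from 2 tags in 4 libraries. Within the input and within the enriched libraries these groups all overlapped and give no order.

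The IREB2 3′UTR averaged 3.27 ± 6.53 CPM in mock and 16.4 ± 11.2 CPM in arsenite input of the G3BP line, 13.8 ± 16.3 and 22.4 ± 20.6 CPM in NLS input, and 17.8 ± 9.91 and 23.9 ± 22.2 CPM in NES input. The mean was higher after arsenite in each line, while the libraries overlapped. The G3BP mock mean rested on 1 library (13.1 CPM), the only 1 with tags. NES input rose in JL0388 (10.8 to 39.6 CPM) and fell in JL1024 (24.8 to 8.16 CPM). Among enriched groups it ran from 2.52 ± 4.80 CPM (G3BP mock) to 14.4 ± 12.7 CPM (G3BP arsenite). FTH1 and FTL held at most 3 tags each over all libraries of any enriched group.

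**Figure D4:**
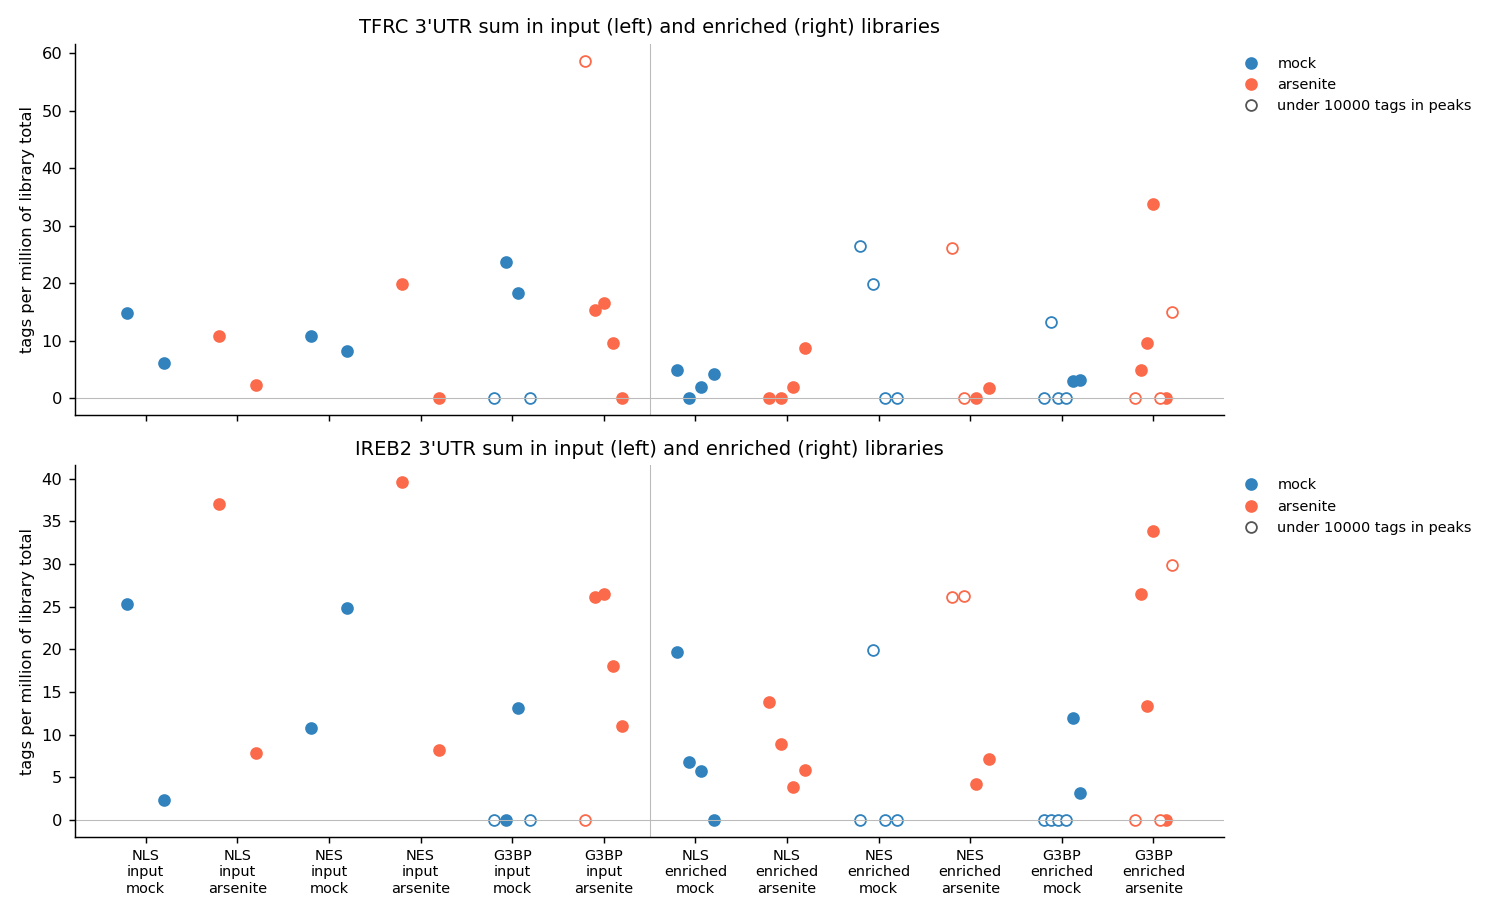
Tags per 1000000 of library total in the TFRC and IREB2 3′UTR sums (vertical axes) for each input library (left of the line) and each enriched library (right), by APEX line and treatment. Open points have under 10000 tags in peaks; the highest TFRC value, 58.6 CPM, is 1 tag in such a library.

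Over all input libraries, limma with the line and library set as terms called 0 of 6 member sums for arsenite against mock, beside 0% of 11316 sums, of which 1175 had an unadjusted p under 0.05 and edgeR called 815. Of the members, 2 had an unadjusted p under 0.05. The FTH1 3′UTR gave a log2 difference of 0.72 ± 0.31 (adjusted p = 0.464). The IREB2 3′UTR gave a log2 difference of 1.28 ± 0.63 (adjusted p = 0.474), while edgeR on the recovered tags gave 1.07 and called it (adjusted p = 0.0256). Within library sets, limma gave 0.87 for the IREB2 3′UTR in JL0388 (adjusted p = 0.0348), 0.77 in JL1024 (0.770) and 2.43 in JL0361 (0.492). In JL0361 each mock input held 0 tags of it against 0, 29 and 32 in arsenite. There it passed the filter only through the arsenite libraries, which fixed its sign. The TFRC 3′UTR gave 0.10 ± 0.61 (adjusted p = 0.963), with -0.14 in JL0388, 1.82 in JL0361 and -1.03 in JL1024. TFRC introns (0.05, adjusted p = 0.957) and IREB2 introns (-0.55, 0.716) and transposable element peaks (-0.47, 0.527) did not pass.

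In the enriched libraries, the comparison of NLS with NES after arsenite called 1 of 3 member sums, IREB2 introns, beside 14.1% of all sums. The sum passed the filter only through its NLS libraries, so its direction was fixed by that filter, and without the filter the call was lost. It rests on 1, 3, 1 and 1 tags in the NLS libraries against 0 in each NES library (log2 difference 1.92 ± 0.61, adjusted p = 0.045), with 2.80 within JL0388 (0.0394) and 1.03 within JL1024 (0.120). This fit took all 8 libraries as separate samples; with replicates 1 and 2 of each line counted as 1 sample, as in the means above, the difference was 1.62 and the call was lost (adjusted p = 0.0824). The median of all sums in this comparison was 0.91, or 0.49 when libraries were scaled to their tags in peaks. The call was lost in 15 of its 20 alternatives. The 3′UTRs of IREB2 (-0.61, adjusted p = 0.596) and TFRC (-0.33, 0.819) did not pass.

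The other enriched comparisons called no member. In simulated libraries of this depth limma found 36 of 200 sums changed 4-fold for NLS against NES after arsenite and 9 of 197 for G3BP against NES after arsenite, so a miss is no evidence of likeness. The changed sums were drawn from those with more tags. NLS against NES in mock cells tested 2 member sums, with 0 at an unadjusted p under 0.05 and 0 called by edgeR, beside 20.8% of all sums; IREB2 3′UTR gave 0.95 (adjusted p = 0.475) and TFRC 3′UTR -0.72 (0.606). G3BP against NES tested 1 in mock cells, the TFRC 3′UTR (-1.12, adjusted p = 0.959; beside 0% of 1547 sums, 66 of them unadjusted under 0.05 and 6 called by edgeR). After arsenite it tested the 3′UTRs of IREB2 (-0.75, adjusted p = 0.761) and TFRC (0.61, 0.813), beside 3.12%. Arsenite against mock in the G3BP line tested the 3′UTRs of IREB2 (1.41, adjusted p = 0.409) and TFRC (0.68, 0.696; beside 0% of 2560 sums, 415 unadjusted and 108 called by edgeR).

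Within library sets the mock enriched values of the TFRC 3′UTR come down to single tags. In JL0388 the NES libraries held 1 and 1 tags, the NLS libraries 1 and 0 and the G3BP libraries 0 and 0. In JL1024 the NES libraries held 0 and 0, the NLS libraries 1 and 2 and the G3BP libraries 1 and 3. Wherever an arm held no tag, the filter was passed only through the other arm and fixed the direction, so no fit within a set is given, and a difference between APEX lines was not detectable for TFRC at this depth.

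Other genes of iron handling were taken from a list of 46, of which 38 had a peak. In the mock fractions, 71 of their sums (34 genes) were tested, and 4 were higher and 13 lower in the nucleus, with a median log2 difference of -0.19 against 0.11 for all sums, of which 29.0% were called. Of their 23 3′UTR sums, 11 were lower and 0 higher, with a median of -1.14, close to the 49.4% lower and the median of -0.98 of all 3′UTR sums. PCBP1 and PCBP2, RNA-binding proteins that also deliver iron to ferritin, showed the largest falls on the tested log2 scale, which understates the change of low values. By ratio of means, EPAS1 (8.46-fold) lay between PCBP1 (12.3-fold) and PCBP2 (7.09-fold). PCBP1's 3′UTR was at 12.9 against 158 CPM (-3.41 ± 0.23, adjusted p = 1.99e-07) and PCBP2's at 107 against 757 CPM (-2.80 ± 0.16, 6.72e-08). EPAS1, a hypoxia-inducible factor whose mRNA carries an IRE, had 5.96 against 50.4 CPM in the 3′UTR (-2.70 ± 0.26, 3.65e-06) but 19.7 against 6.27 CPM in introns (1.36 ± 0.27, 0.00186). Introns of HERC2, a ubiquitin ligase, were also higher in the nucleus (1.10 ± 0.27, 0.00677). The CDS of TMPRSS6, a protease that lowers hepcidin, held 7 nuclear tags against 0 (adjusted p = 0.0185), but it passed the filter only through the nuclear libraries, which fixed its direction.

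Under arsenite, the nuclear against cytoplasmic comparison called 4 of 70 iron list sums, 1 higher and 3 lower, near the 4.99% of all sums. The 3 lower were the 3′UTRs of PCBP2 (-1.30) and PCBP1 (-1.16) and the CDS of TF, transferrin itself (9.25 against 25.2 CPM, -1.26 ± 0.23, adjusted p = 0.000804). The CDS of FLVCR1, a transporter first described as a heme exporter, was higher in the nucleus (25.0 against 3.25 CPM, 2.30 ± 0.26, 1.40e-06).

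In the cytoplasm, arsenite against mock called 12 of 69 list sums, 2 higher and 10 lower, beside 13.3% of all sums. Of the 10 lower, 8 were among 24 3′UTR sums (median -0.39), beside 18.6% lower and a median of -0.30 for all 3′UTR sums. Of the 5 uptake 3′UTR sums tested, only 2 were called. Those of STEAP3, an endosomal ferric reductase (27.5 to 6.05 CPM, -1.82 ± 0.24, adjusted p = 0.000137), and SLC39A14, a metal importer (94.5 to 29.9 CPM, -1.62 ± 0.22, 0.000157), fell as that of TFRC did. The FLVCR1 3′UTR fell from 52.5 to 16.7 CPM (-1.52 ± 0.20, 0.000149). Rises were seen in introns of HMOX1, the inducible heme oxygenase (3 to 36 tags, 0.00796), and of FBXL5, which marks IREB2 protein for degradation (47.8 to 72.7 CPM, 0.58 ± 0.17, 0.0308). All mock tags of HMOX1 lay in 1 library (mean 1.06 ± 1.84 CPM, SD, n = 3). Its sum met the filter only through the arsenite libraries, which favoured a rise. In the nucleus 4 of 65 list sums were called, 3 higher and 1 lower, near the 6.13% of all sums. The 3′UTRs of EPAS1 (5.96 to 19.5 CPM, 1.43 ± 0.27, 0.00429), FLVCR1 (0.91 ± 0.25, 0.0426) and PCBP2 (0.80 ± 0.13, 0.00106) rose, as that of IREB2 did, and PCBP2 introns fell (-0.93 ± 0.14, 0.000781).

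Across the 12 fraction libraries, the sums whose log2 values followed the TFRC 3′UTR most closely among 3180 sums of at least 20 CPM were the 3′UTRs of TMEM97 (Pearson's r = 0.99), SLC35F5 (0.98) and SLC12A2 (0.98). For the IREB2 3′UTR they were those of WDR36 (0.98), LRRC58 (0.98) and CNOT6 (0.97), and for the FTL 3′UTR those of LGR4 (0.93), FLRT3 (0.92) and CADM1 (0.91). FTH1, by its intron sum, which came mostly from a peak beyond the RefSeq gene, was followed less closely, by introns of FNIP2 (0.78) and YTHDF3 (0.73) among others. These values describe libraries that share fractions and treatments, and they carry no test.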

How the data were processed

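HuR CLIP tags were counted in 58 Huh-7.5 libraries of 16 groups. The authors deposited a signal per peak and library. It was read as tags divided by a library total because the values of a library were whole multiples of 1 step. Whole tags were recovered for 100% of values (tolerance 0.05). The submitters' processing notes name Bowtie2, SAMtools, bedtools, HOMER and GRCh38.p14; the peak caller is not given in the sources used here. Of 395471 lines, 8257 repeats were dropped. Whether the table's coordinates count from 0 or 1 is not stated. Intervals and floors cover counting error only.

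Log2(CPM + 2.28) was tested with limma 3.58.1 (trend) in R 4.3.3 on all peaks or all 30217 gene and class sums detected in no fewer libraries than the smaller group holds, at an adjusted p of 0.05; edgeR 4.0.16 was the alternative. Tests were checked on simulated data: limma called 181 of 200 sums and 59 of 200 peaks changed 4-fold in the mock fraction comparisons of 21245 sums and 157168 peaks. The changed ones were drawn from features averaging at least 5 tags per library. All FTH1 and FTL sums and the IREB2 Other and transposable element sums held fewer, so the rate for them was not measured. The 4 members and the iron gene list were chosen with earlier results of these data known. Named were all member sums, the 3 highest and the largest called member peaks, and the 3 largest called list sums per direction and test. In 5 enriched pairs of libraries no difference beyond sampling noise was detected; 4 of them (chi-square per degree of freedom 1.07 to 1.09, p from 0.072 to 0.107, against tables of the same totals) were each counted as 1 sample in means, not in the tests, where this was an alternative. In the fifth (0.976, permutation p = 0.785), a different pair thinned to the same depth was not told apart either, and its libraries were kept separate. Same-numbered libraries varied together in the peak comparison of fractions after arsenite (correlations of 0.116 to 0.154 in 3 pairs). There a replicate block gave 379 calls against 608 and 0 member calls in both. Median correlations of like size were seen for sums of fractions after arsenite (0.138) and for NLS against NES (0.154 mock, 0.132 arsenite). The same held for G3BP against NES after arsenite (0.125) and for arsenite against mock in the G3BP line (0.122) and in input (0.215). In these enriched and input comparisons, replicate number and library set were not told apart.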

Additional observations from a re-analysis of the deposited data

Results flagged for a closer look

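The effect of arsenite differed between nucleus and cytoplasm, by the interaction term of limma, for the 3′UTRs of FTL (1.59 on log2, adjusted p = 0.0233), IREB2 (1.41, 0.00133) and TFRC (1.36, 0.000258).

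A library far from its group was looked for in 28 combinations of a gene and a group of 4 to 7 input or enriched libraries, and 14 had one. The 1 in 20 that chance gives holds for continuous values and not here: in 9 of the 14 every other library of the group held 0, so that any tag stands apart by construction. Each such value rests on 1 to 10 tags in a library. For the TFRC 3′UTR they were 58.6 CPM in G3BP arsenite input replicate 1, 13.2 CPM in G3BP mock enriched replicate 2 and 26.1 CPM in NES arsenite enriched replicate 1. For the IREB2 3′UTR they were 13.1 CPM in G3BP mock input replicate 3, 11.97 CPM in G3BP mock enriched replicate 5 and 19.9 CPM in NES mock enriched replicate 2. For FTH1 over all classes they were 22.5 CPM in G3BP arsenite enriched replicate 4, 4.93 and 8.92 CPM in NLS mock enriched replicate 1 and NLS arsenite enriched replicate 2, and 9.48 and 13.1 CPM in NES mock enriched replicate 4 and NES arsenite enriched replicate 2. For FTL over all classes they were 3.31 CPM in G3BP arsenite enriched replicate 2, 4.19 CPM in NLS mock enriched replicate 4 and 1.91 CPM in NLS arsenite enriched replicate 3.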

How the results depend on the processing

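The calls on the TFRC 3′UTR in the mock fraction and cytoplasmic arsenite comparisons, on the IREB2 and FTL 3′UTRs in the mock fraction comparison, and the TFRC and IREB2 interactions were made under every alternative run (14 each, 20 for the interaction). What limits the other calls was not tested; 1 tag is worth 0.568 to 1.46 CPM in a fraction library and up to 214.5 CPM in an enriched one.

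Member calls moved as follows. In the peak comparisons, a pseudocount 4 times smaller gave 2 calls for the mock fractions and 4 for arsenite in the cytoplasm, edgeR gave 6 for the latter, and a stricter filter, which tests fewer peaks, gave 11 (mock fractions), 6 (arsenite fractions), 11 (arsenite, cytoplasm) and 2 (arsenite, nucleus). Over all peaks that filter called 24449 against 4437, 17109 against 608, 28883 against 1473 and 14267 against 372; with the smaller pseudocount arsenite in the cytoplasm gave 6762, of which 5162 were higher, against 1473, of which 465 were. For sums, the fractions after arsenite gave 0 with the smaller pseudocount and when scaled to tags in peaks, and arsenite in the nucleus gave 2, IREB2 introns being the sum gained, without a filter, with edgeR and with a replicate block. NLS against NES after arsenite lost its call in 7 of 12 alternatives other than leaving out 1 library. Among these were a larger pseudocount, no filter, edgeR, a replicate block, near-identical libraries counted once, and the fit within JL1024. Within JL1024 the calls were 1 (NLS against NES, mock), 3 and 1 (G3BP against NES, mock and arsenite), and within JL0388 1 (G3BP against NES, mock) and 1 (arsenite, input), which edgeR also gave. Within a set, a sum of an enriched or input comparison could pass the filter through the higher arm alone, which then fixed its direction. Scaling to tags in peaks moved the median log2 difference of all mock fraction peaks from 0.15 to 0.04. The cause was not tested.

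Leaving out 1 library gave 0 to 8 peak calls in the mock fractions and 0 to 6 for arsenite in the cytoplasm, while calls over all peaks ran from 0 to 16620 (4437 with all libraries) and from 0 to 16959 (1473), so the 2.82% and 0.760% called are as unstable. Over all peaks it gave 0 to 57 (608) for the fractions after arsenite and 1 to 8614 (372) for arsenite in the nucleus. For sums it gave 3 to 5 (mock fractions), 0 to 1 (arsenite fractions), 1 to 2 (arsenite, cytoplasm), 0 to 1 (arsenite, nucleus), 2 to 3 (interaction) and 0 (NLS against NES, arsenite). Over all sums the first 4 of these ran from 3840 to 5156 (6155 with all libraries), 155 to 817 (1187), 480 to 2977 (3047) and 54 to 910 (1361). Signs turned for the IREB2 intron interaction without nuclear mock replicate 1 (-0.19; range over such fits -0.19 to 0.49) and for the FTL 3′UTR between fractions after arsenite without nuclear arsenite replicate 1 or 2 (0.085) or cytoplasmic arsenite replicate 2 (0.080; range -0.32 to 0.085). Leaving out shallow libraries could not be fitted for NLS or G3BP against NES in mock cells. Shares of the IREB2 peak pair without each library, and in inputs with at least 10 tags (8.70% in 1 mock library, 4.88% to 63.6% in 5 arsenite ones), were chosen after seeing the data.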
